A study of Mus musculus with 8 samples.

Results

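The potassium channel subunit genes are the genes of the deposited expression table whose mouse symbol begins with Kcn, followed by letters and a number. The table lists 22337 genes, of which 93 have such a symbol. Kcnj3, Kcnj6, Kcnj9, Kcnj10 and Kcnj13 are left out of the set by its rule, which leaves 88 members. No measured value entered the rule. By family there were 40 voltage-gated (Kv) genes, 8 genes grouped as calcium- or sodium-activated channels and 10 inward rectifier (Kir) genes. A further 14 were genes of channels with 2 pore domains (K2P) and 16 were accessory subunit genes. The calcium- or sodium-activated group was set by the names Kcnma, Kcnn, Kcnt and Kcnu, not by what opens each channel, so Kcnu1 is in it by name only. The 88 members were measured by RNA-seq in the nucleus accumbens, the ventral striatum, with 4 libraries per group. The mice were male C57BL/6 mice that received morphine or saline. Morphine is an agonist of the mu opioid receptor. The series is titled as a study of chronic exposure. The labels state no dose, schedule, age or time of dissection. They also do not say whether a library stands for 1 mouse or for pooled mice, so the p-values reflect the spread among these libraries, which could be technical. The values are FPKM, fragments scaled to transcript length and library size, by which levels of different genes are set side by side below. Coverage along the transcripts was not checked, so such comparisons between genes are approximate.

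Potassium channels let potassium ions leave or enter the cell along their gradient and so set the resting potential, end action potentials and limit firing. Kv channels open on depolarisation, calcium-activated channels follow calcium entry or firing, Kir channels hold the resting potential, and K2P channels carry leak current. Accessory subunits alter the trafficking and gating of the pore-forming subunits. Medium spiny neurons, the main neurons of the striatum, are known for a hyperpolarised resting state held by Kir channels and for A-type and slowly inactivating Kv currents that delay firing. The products of Kcnf, Kcng, Kcns and Kcnv genes are called silent Kv subunits because they form no channel by themselves and assemble with Kv2 subunits, such as that encoded by Kcnb2.

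The pore-forming subunits share the selectivity filter, a short loop in which backbone oxygens of threonine, glycine and tyrosine or phenylalanine line the path of the ion. Its codons were searched in frame, on the coding strand, in the longest annotated coding sequence of each gene (GENCODE M21, GRCm38) as 5 codons in a row: one that starts with AC (threonine), any codon, one that starts with GG (glycine), one that starts with TA or TT, and again one that starts with GG. The TA and TT forms exclude each other, and a codon that starts with TT can stand for phenylalanine or leucine. Of 72 pore-forming members 61 held a match, as did 0 of 16 accessory members, against 1.29% of the 21615 coding genes of the table. The sequences below show the match in capitals with 15 bases on either side, for the genes whose changes are described first (Kcng1 and Kcnf1), for the Kv2 gene Kcnb2, for other silent subunits and for 1 gene each of the Kir, calcium-activated and K2P families.
Kcng1: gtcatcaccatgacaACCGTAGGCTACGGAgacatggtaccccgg
Kcnf1: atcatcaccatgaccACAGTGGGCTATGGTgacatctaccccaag
Kcnb2: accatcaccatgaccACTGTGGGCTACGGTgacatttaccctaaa
Kcns2: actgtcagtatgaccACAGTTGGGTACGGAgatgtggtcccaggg
Kcnv1: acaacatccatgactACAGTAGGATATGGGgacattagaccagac
Kcnj4: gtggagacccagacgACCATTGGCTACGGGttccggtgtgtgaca
Kcnma1: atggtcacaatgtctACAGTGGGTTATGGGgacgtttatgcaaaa
Kcnk13, first pore: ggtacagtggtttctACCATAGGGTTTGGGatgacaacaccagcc
Kcnk13, second pore: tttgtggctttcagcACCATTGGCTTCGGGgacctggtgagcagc
The stretch of Kcng1 lies at chr2:168262626-168262670 and that of Kcnf1 at chr12:17175046-17175090, both on the minus strand of GRCm38. Those of Kcnb2 (chr1:15710031-15710075, plus strand), Kcns2 (chr15:34839597-34839641, plus strand), Kcnv1 (chr15:45109274-45109318, minus strand), Kcnj4 (chr15:79485352-79485396, minus strand) and Kcnma1 (chr14:23528398-23528442, minus strand) also lie within 1 exon. The first stretch of Kcnk13 is split by an intron (chr12:99966259-100061024, plus strand) and the second is not (chr12:100061361-100061405). Kcnf1 had 39 of 45 bases identical to Kcnb2, while Kcng1 had 31, Kcnv1 29 and Kcns2 28. All 14 K2P genes held a match and 11 held 2 of them, the exceptions being Kcnk1, Kcnk6 and Kcnk7 with 1. In the Kir family Kcnj8 and Kcnj11, the pore genes of ATP-sensitive channels, held the TT form and the other 7 with a match the TA form. The 11 pore-forming members without a match were Kcnh1, Kcnh2, Kcnh3, Kcnh4, Kcnh6, Kcnh7, Kcnh8, Kcnj14, Kcnn1, Kcnn2 and Kcnn3, and the absence of a match says only that these letters were not found in frame.

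Accessory subunits and Kv genes made up most of the summed level of the 88 members. The Kir genes left out by the rule are not in this sum, so the Kir share covers only part of that family. Summed over the 8 libraries, accessory genes held 40.0% of the members' FPKM, Kv genes 34.0%, K2P genes 11.2%, calcium- and sodium-activated channel genes 10.2% and Kir genes 4.64%. The 5 highest members held 40.9% of it. Kcnab2, which encodes a cytoplasmic beta subunit of Kv1 channels, was the highest with a mean of 149 FPKM over the 8 libraries, followed by Kcnip3 (86.7 FPKM), a calcium-binding subunit of Kv4 channels that also acts as a transcriptional repressor. The K2P gene Kcnk1, the Kv1 gene Kcna1 and the beta subunit gene Kcnab1 came next. The median member stood at 4.45 FPKM, 25 members had a mean of at least 10 FPKM, and 19 stayed under 1 FPKM in every library. The plot of levels by family shows the highest 3 genes of each.

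**Figure D1:**
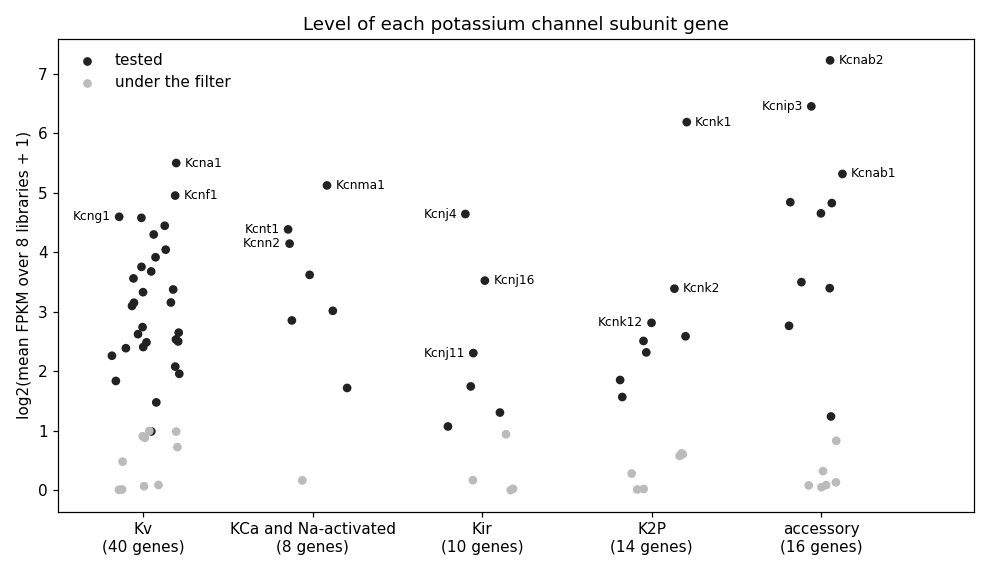
Mean level of each of the 88 potassium channel subunit genes over the 8 libraries, as log2(mean FPKM + 1), by family. Black points are genes that reached 1 FPKM in 4 or more libraries and grey points are the others, and the 3 highest genes of each family are named, with Kcnab2 (149 FPKM) at the top.

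The FPKM of all genes summed to between 480003.6 and 540104.1 per library, and read depth is unknown, since FPKM keeps no library total. Mitochondrially encoded genes held 9.09 to 12.6% of the summed FPKM in saline and 6.09 to 7.94% in morphine. Markers of striatal projection neurons were present in all libraries but differed between them: 10 of 14 tested fell with morphine, none rose, and their summed level was 291 to 435 FPKM in the morphine libraries, 1096 to 1305 in saline replicates 1, 2 and 4, and 5285 in saline replicate 3. Of 9 tested markers of cortical glutamatergic neurons none passed limma (3 higher at an unadjusted p under 0.05), and their summed level was 267 to 334 FPKM with morphine, 231 to 240 in saline replicates 1, 2 and 4, and 47.2 in saline replicate 3. Markers of endothelial cells (2 of 6 tested fell; 115 to 135 FPKM in saline and 81.7 to 94.7 in morphine) and of mural cells and fibroblasts (1 of 7 fell; 82.2 to 154 and 51.6 to 66.5) had a lower summed level in every morphine library than in any saline library. Those sums contain the genes that fell and add no support to them. Mean FPKM in saline and morphine was 58.1 and 34.0 for Ly6c1, 19.2 and 10.6 for Slco1a4 and 66.4 and 32.5 for Vtn. Cldn5, which was not called, had 35.7 and 36.3. Changes were negative in 5 and positive in 1 of the 6 endothelial markers, and negative in all 7 of the mural list. None of 8 tested astrocyte markers and 8 oligodendrocyte markers passed limma (2 lower in each list at an unadjusted p under 0.05), nor did any of 4 oligodendrocyte precursor and 6 microglia markers (0 at that level). Of 9 interneuron markers 1 fell, of 3 choroid plexus and ependyma markers 1 fell, and of 4 blood markers 2 fell. Over all tested genes 1.48% were called lower. The 2 blood markers were S100a8 and S100a9, while the haemoglobin genes Hba-a1 and Hbb-bs did not pass (limma adjusted p = 0.427 and 0.688). No listed marker was at 0 in all libraries. In bulk tissue, fewer cells of a type and less RNA per cell cannot be told apart. The part of these differences in the results below was not tested beyond the covariate setting given with them.

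Morphine was compared with saline by limma (two-sided) on log2(FPKM + 1) over the 12536 genes that reached 1 FPKM in 4 or more libraries, among them 61 of the 88 members. A gene was called at an adjusted p under 0.05 (Benjamini-Hochberg over all 12536 genes), and a log2 change is morphine minus saline on this scale, which understates changes of genes near 1 FPKM. Both members that were called, Kcng1 and Kcnf1, were silent Kv subunit genes and both rose. Called members made up 3.28% of the 61, where 2.52% of all tested genes were called, so the share lay near the background. By direction 2 members were called higher (1.04% of all genes were) and 0 lower by limma (1.48% of all genes were). At an unadjusted p under 0.05 there were 9 members higher (14.8%, against 10.0% of all tested genes) and 7 lower (11.5%, against 10.1%). The groups did not overlap in 8 members. In 4 of them (6.56%, against 6.56% of all tested genes) every morphine value lay above every saline value, and in the other 4 (6.56%, against 6.1%) below. The median log2 change of the 61 was 0.04, beside 0.01 over all tested genes, with 32 changes positive and 29 negative. Of the 59 members that were not called, 47 had a 95% interval that lay within 1 log2 unit of no change on both sides. Over all tested genes 11195 of the 12220 that were not called had such an interval. The median distance from the estimate to either bound was 0.44 for the 61 members and 0.34 for all tested genes, so the members were less tightly bounded.

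**Figure D2:**
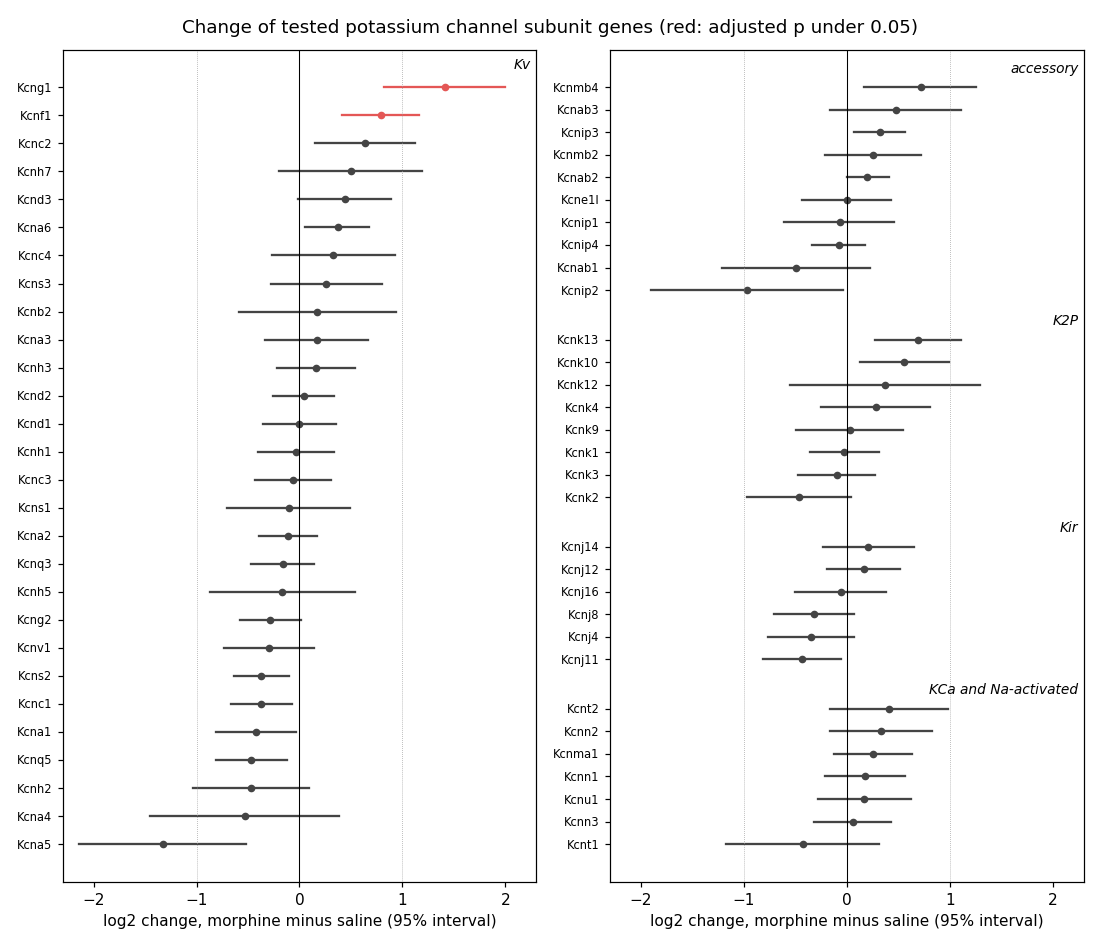
Log2 change (morphine minus saline) of 59 of the 61 tested potassium channel subunit genes with its 95% interval from limma, Kv genes on the left and the other families on the right. Kcng1 (1.41) and Kcnf1 (0.79), in red, passed the threshold, and the intervals of most others reach 0.

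Kcng1 had the largest rise among the tested members. Its FPKM was 9.1, 6.95, 18.71 and 16.7 in saline replicates 1 to 4 and 31.28, 31.75, 41.12 and 30.29 in morphine replicates 1 to 4. Every morphine library lay above every saline library, with the saline libraries themselves in a lower and a higher pair. The means were 12.9 ± 5.72 and 33.6 ± 5.04 FPKM (SD, n = 4 per group), a log2 change of 1.41 ± 0.27 (SE; limma adjusted p = 0.0319). Kcng1 (ENSMUSG00000074575) spans chromosome 2, 168260117 to 168281736, on the minus strand of GRCm38. Kcnf1, the only gene of its Kv subfamily, had 21.92, 25.37, 18.52 and 20.15 FPKM in saline and 31.63, 37.46, 31.87 and 52.95 in morphine. Again no morphine value reached down to the saline values, and morphine replicate 4 was the highest. The means were 21.5 ± 2.94 and 38.5 ± 10.0 FPKM (SD, n = 4 per group), with a log2 change of 0.79 ± 0.17 (SE; limma adjusted p = 0.0449). Kcnf1 (ENSMUSG00000051726) lies on chromosome 12, 17172100 to 17176888, minus strand, and the exons of neither gene share bases with another annotated gene.

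Neither call held when each library in turn was left out. Kcng1 passed without saline replicate 3 (adjusted p = 0.0127) or 4 (0.0239) but not without saline replicate 1 (0.0762) or 2 (0.0792) or morphine replicate 1 (0.0607), 2 (0.0647), 3 (0.112) or 4 (0.0737), with log2 changes between 1.17 and 1.61. Kcnf1 did not pass without any 1 of the 8 libraries (limma adjusted p between 0.0607 and 0.104, log2 changes between 0.63 and 0.87), and it missed the threshold with mitochondrially encoded genes removed (0.0528) or with quantile normalization (0.0548). With the mean of the striatal marker list as a covariate the changes were 2.28 for Kcng1 and 0.45 for Kcnf1 (adjusted p = 0.12 and 0.692). The groups do not overlap in the summed level of those markers, so that morphine and the marker level cannot be told apart in that fit.

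None of the other silent subunit genes passed. Of 10 silent Kv members 7 were tested, 2 rose (28.6%, where 1.04% of all tested genes were called higher) and 5 were not called. The groups did not overlap in 2 upward and 2 downward (28.6% each, against 6.56% and 6.1% of all tested genes). These shares rest on 7 genes and were not tested. The median log2 change of the 7 was −0.10 (−0.28 without saline replicate 3), with 3 changes positive and 4 negative. Kcns2 had 6.34, 6.91, 6.59 and 6.26 FPKM in saline and 5.42, 4.1, 5.07 and 4.79 in morphine. All its morphine values were below all its saline values, with a log2 change of −0.37 ± 0.12 (SE; limma adjusted p = 0.131). Kcng2, with 1.06 to 1.24 FPKM in saline and 0.6 to 1.05 in morphine, also had groups that did not overlap (−0.29, interval −0.58 to 0.01). Kcnv1, the most abundant of the remaining silent genes, had 25.4 ± 6.61 FPKM with saline and 20.3 ± 4.37 with morphine (SD, n = 4 per group), and Kcns1 and Kcns3 had log2 changes of −0.10 and 0.26. Kcng3 and Kcng4 were under the filter, at up to 0.15 and 1.61 FPKM, and Kcnv2 at up to 0.03.

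Kcnb2, a Kv2 gene with whose product these subunits assemble, did not pass. Kcnb2 had 3.88 ± 0.575 and 5.32 ± 4.31 FPKM (SD, n = 4 per group), where morphine replicate 4 held 11.68 and the other morphine libraries 2.39 to 4.21. Its log2 change was 0.17 (95% interval −0.59 to 0.94). The summed FPKM of the 10 silent genes was 66.4 to 80.8 in saline and 96.6 to 111 in morphine. Without Kcng1 and Kcnf1 it was 29.2 to 48.5 and 27.3 to 40.6. The summed level therefore contains the called genes and adds no support to them.

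**Figure D3:**
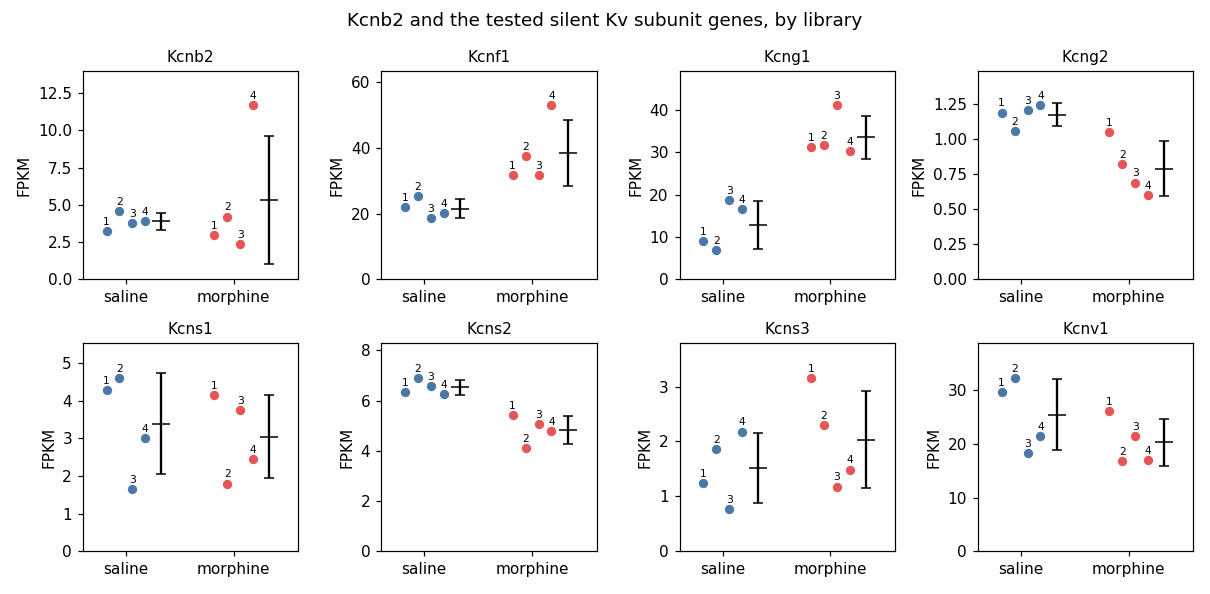
FPKM of the Kv2 gene Kcnb2 and of the 7 tested silent Kv subunit genes in each library, numbered by replicate, with the mean and SD of each group of 4 beside the points. Each panel has its own axis from 0. Kcnf1 and Kcng1 lie higher in every morphine library, while Kcng2 and Kcns2 lie lower.

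Among the Kv1 genes the largest difference was in Kcna5, which did not pass. Kcna5 encodes a delayed rectifier subunit, and its FPKM was 7.94, 7.42, 25.68 and 7.38 in saline and 3.58, 3.91, 2.03 and 5.18 in morphine. Saline replicate 3 was far above the other libraries, and the groups did not overlap. The means were 12.1 ± 9.05 and 3.67 ± 1.3 FPKM (SD, n = 4 per group; log2 change −1.33 ± 0.37 SE, limma adjusted p = 0.0823). Without saline replicate 3 the change was −0.92 (adjusted p = 0.0592), and with the striatal covariate it was 0.35, of the opposite sign. Saline replicate 3 was also the library with the highest summed striatal marker level (5285 FPKM). Kcna1, an axonal subunit that limits repetitive firing and the most abundant Kv gene, had 51.0 ± 11.6 FPKM with saline and 37.6 ± 6.43 with morphine (SD, n = 4 per group; −0.42, interval −0.81 to −0.03, adjusted p = 0.222). Its share of the summed Kv1 level was close in both groups, at 0.513 ± 0.0379 and 0.488 ± 0.0333 of the summed FPKM (SD, n = 4 per group). Kcna6 made up 0.142 ± 0.0409 of that sum in saline and 0.231 ± 0.0372 in morphine, and had 13.4 and 17.6 FPKM (log2 change 0.37, adjusted p = 0.186). Up to 39.6% of its annotated exon bases are shared with an antisense gene, and the strand setting of the counting is not stated. Kcna2, the usual partner of Kcna1, had a log2 change of −0.11 (interval −0.39 to 0.17).

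The remaining conducting Kv genes gave no call. Of the 30 tested Kv members 2 rose (6.67%, against 1.04% of all tested genes), none fell by limma and 28 were not called. At an unadjusted p under 0.05 there were 4 higher (13.3%, against 10.0% of all tested genes) and 5 lower (16.7%, against 10.1%). The median log2 change of the 30 was −0.02 (0.03 without saline replicate 3). In the Kv3 genes, which support fast firing, Kcnc2 had 9.75 ± 3.29 FPKM with saline and 15.3 ± 2.73 with morphine (SD, n = 4 per group; log2 change 0.64, limma adjusted p = 0.144). The groups overlapped for Kcnc2, with saline replicate 3 the lowest (5.94 FPKM). Without that library its change was 0.44 (limma adjusted p = 0.23). Kcnc1 had 9.6 to 12 FPKM in saline and 6.54 to 9.46 in morphine, groups that did not overlap (−0.37, adjusted p = 0.17). The Kv4 genes, whose A-type current delays firing, had log2 changes of 0.04 (Kcnd2, interval −0.26 to 0.34), 0.44 (Kcnd3) and −0.00 (Kcnd1). Kcnq5, a gene of the M-current, had 5.10 ± 1.12 FPKM with saline and 3.37 ± 0.341 with morphine (SD, n = 4 per group), a log2 change of −0.47 ± 0.16 (SE; limma adjusted p = 0.137). The 5 tested Kcnh genes, of the ether-a-go-go type, had changes between −0.47 (Kcnh2) and 0.50 (Kcnh7), which were −0.31 and 0.12 without saline replicate 3.

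None of the 7 tested genes of calcium- and sodium-activated channels passed (0 at an unadjusted p under 0.05), and 6 had positive changes, with a median of 0.18. Without saline replicate 3 the median was 0.09, and the changes given next were 0.09 for Kcnma1, 0.15 for Kcnn2, −0.17 for Kcnt1 and 0.17 for Kcnt2. Kcnma1, the pore gene of the large-conductance calcium-activated channel, had 30.72, 39.92, 21.16 and 32.88 FPKM in saline and 34.82, 39.85, 38.17 and 33.36 in morphine. Saline replicate 3 was the lowest and the groups overlapped (log2 change 0.25, interval −0.12 to 0.63). Kcnn2, a small-conductance channel gene, had 15.0 ± 5.44 and 18.4 ± 2.60 FPKM (SD, n = 4 per group; 0.33, interval −0.16 to 0.83). The sodium-activated channel genes differed in sign. Kcnt1 had 22.9 ± 10.2 and 16.9 ± 6.74 FPKM and Kcnt2 had 5.31 ± 2.07 and 7.15 ± 1.63 (SD, n = 4 per group), with log2 changes of −0.43 and 0.41 (adjusted p = 0.511 and 0.408).

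The Kir genes gave no call, and Kcnj4 and Kcnj16 were the most abundant of them. Of 6 tested members 4 had negative changes, with a median of −0.19 (−0.29 without saline replicate 3), and 0 passed limma. At an unadjusted p under 0.05 there was 1 lower (16.7%, against 10.1% of all tested genes). Kcnj4, a strong rectifier of the type that holds striatal neurons at rest, had 27.38, 34.45, 27.11 and 19.13 FPKM in saline and 19.86, 15.63, 21.64 and 26.42 in morphine. The groups overlapped, with means of 27.0 ± 6.26 and 20.9 ± 4.47 (SD, n = 4 per group; log2 change −0.35, interval −0.77 to 0.07, adjusted p = 0.336). Kcnj2, of the same type, was under the filter, with 0.2 to 0.75 FPKM in the morphine libraries, 0.7 to 1.12 in saline replicates 1, 2 and 4 and 2.41 in saline replicate 3. Kcnj11, a pore gene of ATP-sensitive channels in neurons, had 4.70 ± 1.15 and 3.17 ± 0.530 FPKM (SD, n = 4 per group; −0.44, adjusted p = 0.183). Kcnj8, the pore gene of such channels in mural cells, had 2.72 ± 0.562 and 1.98 ± 0.544 FPKM (SD, n = 4 per group). Its log2 change was −0.32 (interval −0.71 to 0.07, limma adjusted p = 0.335). A link of Kcnj8 to the lower mural marker level in morphine given above was not tested. Kcnj16, whose product pairs with a glial Kir subunit, had a change of −0.06 (interval −0.50 to 0.38).

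In the K2P family Kcnk13 came closest to the threshold. Kcnk13 encodes a leak channel known from microglia, and its FPKM was 2.53, 2.85, 4.15 and 5.07 in saline and 5.63, 5.65, 6.62 and 7.55 in morphine. Every morphine value was above every saline value, with a log2 change of 0.69 ± 0.19 (SE; limma adjusted p = 0.081). It passed only without saline replicate 4 (0.83, adjusted p = 0.0401). None of the 6 microglia markers passed, and their summed level was 235 to 345 FPKM in saline and 265 to 292 in morphine. A link of Kcnk13 to the microglia marker level was not tested. Kcnk1, a weakly rectifying leak channel gene and the most abundant K2P member, had 73.3 ± 16.6 and 70.6 ± 3.39 FPKM (SD, n = 4 per group; −0.03, interval −0.36 to 0.31). The mechanosensitive channel genes Kcnk2 and Kcnk10 differed in sign, at −0.46 (adjusted p = 0.291) and 0.56 (adjusted p = 0.148). Kcnk12 had 2.36, 4.36, 7.97 and 14.79 FPKM in the morphine libraries, against 2.47 to 5.72 in saline, and the groups overlapped. Of 8 tested K2P members 0 passed limma. At an unadjusted p under 0.05 there were 2 higher (25.0%, against 10.0% of all tested genes), a share of 8 genes that was not tested. The median log2 change of the 8 was 0.15. Without saline replicate 3 this median was 0.02 and the changes of Kcnk2, Kcnk10 and Kcnk13 were −0.23, 0.40 and 0.75.

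None of 10 tested accessory genes passed limma, and the median log2 change was 0.10. At an unadjusted p under 0.05 there were 3 higher (30.0%, against 10.0% of all tested genes) and 1 lower (10.0%, against 10.1%). The 3 were Kcnab2, Kcnip3 and Kcnmb4, and these shares rest on 10 genes and were not tested. With mitochondrially encoded genes removed, the unadjusted limma p was 0.153 for Kcnab2 and 0.0567 for Kcnip3. With quantile normalization it was 0.264 and 0.103. Kcnab2 had 137.26, 149.34, 135.45 and 132.29 FPKM in saline and 155.69, 154.58, 172.47 and 156.77 in morphine. The groups did not overlap, but the difference was small (log2 change 0.20, interval 0.00 to 0.41, adjusted p = 0.242). Kcnip3 had 77.1 ± 9.01 FPKM with saline and 96.2 ± 8.84 with morphine (SD, n = 4 per group; 0.32, adjusted p = 0.157). Kcnip2, a Kv4 subunit gene, had 24.74, 22.58, 87.56 and 19.61 FPKM in saline and 9.35, 17.21, 17.24 and 20.96 in morphine. Saline replicate 3 was the highest of the 8 libraries, and the groups overlapped through saline replicate 4 (log2 change −0.97, interval −1.90 to −0.04, adjusted p = 0.228). Without saline replicate 3 the change of Kcnip2 was −0.49 (adjusted p = 0.292). Kcnab1 was also highest there, with 91.48 FPKM in saline replicate 3 and 24.74 to 43.59 elsewhere (log2 change −0.49, and −0.12 without saline replicate 3). Kcnmb4, the neuronal beta subunit of the large-conductance calcium-activated channel, had 7.17 ± 2.82 and 11.9 ± 1.95 FPKM (SD, n = 4 per group; 0.72, adjusted p = 0.142; 0.47 without saline replicate 3). Its ratio to Kcnma1 was 0.162 to 0.313 in saline and 0.265 to 0.41 in morphine, which overlap. Kcnmb4 shares 20.8% of its exon bases with the antisense gene Kcnmb4os2 and 10.7% with Kcnmb4os1, and the strand setting is not stated.

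Saline replicate 3 stood apart in many of these genes, in both directions. It held the highest of the 8 values in 13 of the 61 tested members (21.3%, against 20.7% of all tested genes) and the lowest in 22 (36.1%, against 19.8%). In 6 members it was at least 1.5 times every other library. These were Kcnip2, Kcnab1, Kcnk2, Kcna4, Kcna5 and Kcnt1. In 9 members it was lower than every other library by at least the same factor. These were Kcnc2, Kcnc4, Kcnh7, Kcnk9, Kcnk10, Kcnmb2, Kcnmb4, Kcns3 and Kcnt2. Kcna4, an A-type Kv1 gene, had 30.74 FPKM there and 5.9 to 14.54 elsewhere, and Kcnh7 had 2.11 against 6.94 to 10.3. In the same library the summed striatal markers were the highest (5285 FPKM) and the summed cortical (47.2) and interneuron (341) markers the lowest of the 8. That interneuron sum was mostly Sst (154.07) and Npy (143.03), which were lowest there, as were Vip (5.98) and Pvalb (5.1). Chat (8.56), Slc5a7 (4.33) and Lhx6 (5.02) went the other way and were highest there, with Th and Nos1 in between. Leaving it out put the median log2 change of the tested members at 0.062 and 1 member, Kcng1, was called.

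**Figure D4:**
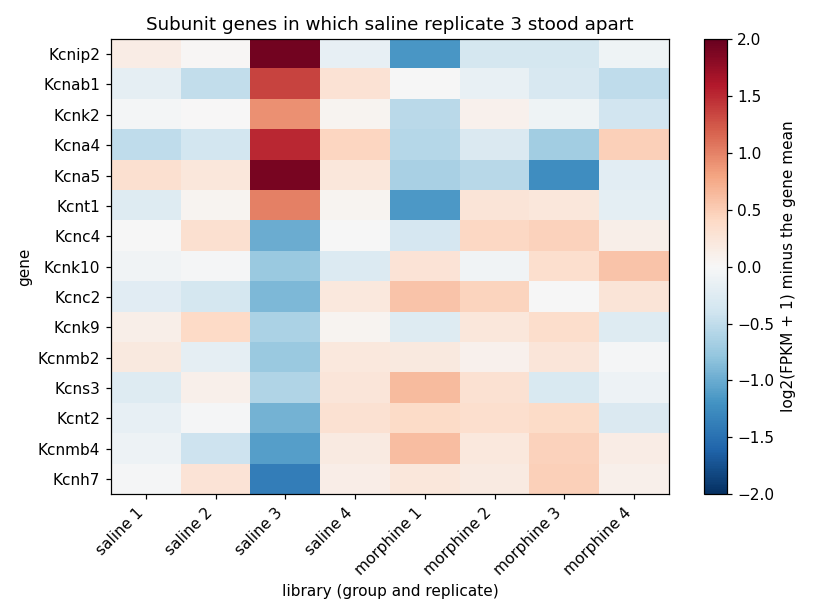
Log2(FPKM + 1) minus the gene's mean over the 8 libraries, for the 15 tested potassium channel subunit genes in which saline replicate 3 was at least 1.5 times above or below every other library (red higher, blue lower). The third column stands out because the genes were chosen by it, and the plot shows which genes were high and which were low there.

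The 27 members under the filter were not tested. Kcnj1 was at 0 in all libraries, and the highest value among the 27 was 3.42 FPKM, of Kcnk15 in morphine replicate 4. Kcnq1, a Kv gene better known from heart and ear, had 0.02 to 0.46 FPKM in saline and 0.15, 1.24, 2.68 and 1.95 in morphine. Its exons share 121 bases (3.0% of its exon bases) with the antisense transcript Kcnq1ot1, and the part of those bases in the difference was not tested. In Kcne3, Kcnh4, Kcnk5 and Kcnk7, 4 of the 26 that were above 0 in some library (15.4%), all morphine values were below all saline values, as in 3.56% of the 7071 such genes of the table. In none of the 26 were they all above, as in 0.82% of those genes. These shares are a description with no test. Kcnk5 had 0.55 to 1.08 FPKM in saline and 0.06 to 0.37 in morphine, and Kcnh4 0.79 to 2.19 and 0.22 to 0.71. Exons of 24 of the 88 members share bases with another annotated gene, in 22 cases with 1 on the opposite strand.

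Proteins that bind, cluster or regulate these channels gave no call either. Of 22 such genes 18 were tested and 0 passed limma (1 higher and 1 lower at an unadjusted p under 0.05), with a median log2 change of −0.05. The smallest p belonged to Vapb and Vapa, which hold Kv2 channels at contacts of the endoplasmic reticulum with the plasma membrane, and to Cntn2, an adhesion protein of the axon beside the node. Their log2 changes were −0.47 ± 0.18 (Vapb, adjusted p = 0.186), 0.42 ± 0.18 (Cntn2, 0.22) and 0.23 ± 0.12 (Vapa, 0.305; SE). The Kv4 partner genes Dpp6 and Dpp10 had changes of 0.14 and 0.01. Of the 3 tested genes of HCN channels, cation channels related to the Kv type that open on hyperpolarisation, 0 passed (0 at an unadjusted p under 0.05), with Hcn2 at −0.55 and Hcn3 at −0.02.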

How the data were processed

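Trizol was used to extract total RNA, reverse transcription was primed with oligo-dT, and the amplified cDNA was read on a NovaSeq instrument, per the labels' protocols. The authors deposited 1 table of FPKM values, rounded to 2 decimals, with 1 column per library. The tools were HISAT2, RSEM, StringTie 1.3.1, Bowtie2 2.2.8 and fastp 0.18.0 on build mm10, per the submitters' processing notes, which give no role or order. Neither the strand setting nor the annotation release is stated in those notes. Of 22337 identifiers 22232 matched GENCODE M21 (GRCm38, the assembly of mm10), which gave symbols, coordinates and coding sequences. Some genes are not reported here by name. Kcne1l is listed as Kcne5 in the table.

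Depth was not recovered from the values. Of 3337 ratios between low values of a gene in different libraries 19.0% were whole within 0.1, where even spacing gives 20%. Libraries of unequal depth give ratios that are not whole even from whole reads, so the check cannot settle whether depth is recoverable. The test was that of limma 3.58.1, run in R 4.3.3 (log2 of FPKM + 1, mean-variance trend, all 8 libraries, no block, Benjamini-Hochberg over 12536 genes). On simulated data with 200 changed genes, 74.8% of changes of 1 and 96.4% of changes of 2 (log2) were found, with 4.5% false calls. There each gene was drawn independently with normal spread, and only genes with a mean log2(FPKM + 1) above 1 were changed. Libraries in which many genes deviate together, as in saline replicate 3, were not simulated. These rates therefore do not measure how reliable the calls in these data are.

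The members and all lists were chosen with earlier results of these data known. Named were the called members and, per family, the 3 with the highest mean and the 3 with the smallest p; other members were named after their values were seen. A planned search of protein sequences was not run, and coding sequence was searched instead, with patterns chosen after the data were seen. The labels do not say that a replicate number marks a shared batch or animal, so the numbers were not taken as pairs. Same-numbered libraries also did not deviate together (see the closing section).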

Additional observations from a re-analysis of the deposited data

Results flagged for a closer look

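For the 22 named members, each group of 4 libraries was checked for 1 value far from the other 3, which chance gives in about 1 in 20 groups. Of 44 groups 9 had such a value. Saline replicate 3 was high for Kcna5 (25.68 FPKM, the others 7.38 to 7.94), Kcnk2 (17.92, the others 8.71 to 9.38) and Kcnip2 (87.56, the others 19.61 to 24.74). Saline replicate 4 was low for Kcnj8 (1.88, the others 2.98 to 3.04) and Kcnk12 (2.47, the others 5.17 to 5.72). In morphine, replicate 3 was high for Kcng1 (41.12, the others 30.29 to 31.75) and Kcnab2 (172.47, the others 154.58 to 156.77), replicate 2 was high for Kcnn2 (22.24, the others 16.73 to 17.52), and replicate 4 was low for Kcnt2 (4.71, the others 7.77 to 8.08).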

How the results depend on the processing

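Under 16 alternatives the 22 named members gave 309 values with the same direction and side of the threshold, 22 in which Kcng1 or Kcnf1 no longer passed, 1 in which Kcnk13 passed, and 17 of opposite sign; at a filter of 5 FPKM only 19 of the 22 were tested. The 2 calls remained 2 with a pseudocount of 0.1, a filter at 5 FPKM and robust empirical Bayes. There was 1 call, Kcng1, after removing mitochondrially encoded genes and with quantile normalization, and 0 without a filter, with the replicate block and with the striatal covariate. Leaving out a library gave 0 to 2 calls higher. Calls lower were 0 under every alternative. The median log2 change of 0.041 became −0.111 with the striatal covariate. With that covariate 11 named genes had the opposite sign, none past the threshold: Kcna1 0.18, Kcna5 0.35, Kcnab1 1.13, Kcnip2 0.76, Kcnk2 0.38, Kcnt1 0.38, Kcnk10 −0.11, Kcnma1 −0.45, Kcnmb4 −0.16, Kcnn2 −0.38 and Kcnt2 −0.49. On leaving out a library the sign turned for Kcnj16 (range −0.18 to 0.10), Kcnk1 (−0.15 to 0.07) and Kcnk12 (−0.02 without morphine replicate 4, to 0.73). The replicate block left 0 of 2 calls (Kcng1 adjusted p = 0.0537, Kcnf1 0.0881), and 5 genes over the whole table. Deviations of same-numbered libraries correlated at −0.20 to 0.05, and no saline library correlated best with its own number. Over the whole table the 316 calls became 17 without a filter, 3 with the covariate, and 0 to 395 on leaving out a library (0 without morphine replicates 3 or 4 or saline replicate 2). The causes of these changes were not tested. Depth is unknown, so no counting error is given.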
